A study of Mus musculus with 10 samples.

Results

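The embryonic cortex of DGCR8 knock-out mice was compared with that of DGCR8 heterozygous mice by small RNA sequencing, and the levels of mature microRNAs (miRNAs) are described here. The comparison takes the 2 libraries labelled DGCR8 KO and the 2 labelled DGCR8 HET, which are 4 of the 10 libraries of the series. They were chosen by their genotype labels, and reads were summed over all end variants that share a mature miRNA name. The study set DGCR8 mutants beside Dicer mutants, and the title of the series speaks of roles of DGCR8 that do not pass through miRNAs. All 10 libraries came from E13.5 cortex (mid-gestation embryos), 1 mouse each and 2 mice per genotype, with 1000 ng of total RNA put into each library. The other 6 libraries are DGCR8 wild type, Dicer wild type and Dicer knock-out, and no treatment is named for any group. The knock-outs are described as conditional. The Cre driver, the share of cells in which the gene was deleted, and whether the heterozygotes carried Cre could not be taken from the labels, so the heterozygotes are read only as what their label says. Small RNA reads do not measure the Dgcr8 transcript, and the genotype itself was not checked here.

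Most miRNAs are cut from the nuclear primary transcript by the Microprocessor, in which DGCR8 binds the RNA and Drosha cuts the hairpin out. Dicer then trims the hairpin in the cytoplasm, and 1 strand is kept in an Argonaute protein, where its seed (bases 2 to 8) pairs with target messages. Some miRNAs reach Dicer without the Microprocessor, among them mirtrons (short introns freed by splicing), capped hairpins such as miR-484, and pieces of tRNAs or small nucleolar RNAs. In developing cortex, miR-9 and let-7 act in the timing of neurogenesis, and miR-92b holds back the production of intermediate progenitors.

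The mature sequences of the miRNAs on which the results turn are given first, from RefSeq on GRCm38.p6, 5′ to 3′, with the seed in capitals. The first set holds the miR-92 pair that shares a seed and fell by unequal amounts.
miR-92b-3p: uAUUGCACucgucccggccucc
miR-92a-3p: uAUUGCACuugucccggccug
The second set comes from the miR-23a cluster, which fell, with its near-identical relative miR-27b-3p from another chromosome, which was not called.
miR-23a-3p: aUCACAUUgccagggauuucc
miR-27a-3p: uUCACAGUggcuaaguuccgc
miR-27b-3p: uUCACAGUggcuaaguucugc
miR-24-3p: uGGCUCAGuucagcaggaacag
The third set holds both strands of the miR-708 hairpin, which fell together and share no seed, and miR-9-5p.
miR-708-5p: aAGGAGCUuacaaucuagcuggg
miR-708-3p: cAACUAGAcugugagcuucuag
miR-9-5p: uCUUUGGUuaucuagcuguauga
The fourth set holds the called let-7 guide strands, all with the seed GAGGUAG.
let-7f-5p: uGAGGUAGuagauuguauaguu
let-7i-5p: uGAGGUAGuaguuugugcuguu
let-7d-5p: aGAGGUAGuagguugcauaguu
miR-98-5p: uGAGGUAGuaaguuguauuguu
The last set holds miRNAs that rose, followed by 3 that are described as made without DGCR8.
miR-127-3p: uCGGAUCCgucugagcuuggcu
miR-344-3p: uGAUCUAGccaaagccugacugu
miR-484: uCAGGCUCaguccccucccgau
miR-1983: cUCACCUGgagcauguuuucu
miR-6944-3p: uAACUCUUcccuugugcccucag

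The HET libraries held 2364463 and 2468929 miRNA reads and the KO libraries 2011508 and 1535333. The 10 most abundant miRNAs took 59.3% and 58.7% of the reads in HET and 53.0% and 55.5% in KO. Of 1432 miRNA names, 557 had enough reads to be tested. Levels are CPM (reads scaled to a fixed library total) after TMM scaling, which sets each miRNA against the bulk of the others, so a loss common to every miRNA stays hidden. HET replicate 2 stood apart from the other DGCR8 libraries in miRNAs of choroid plexus and other epithelia, which took 0.575% of its reads against 0.117% in HET replicate 1. The main counts are therefore also given without it. Since cortex was taken as bulk tissue, fewer cells of a type and less miRNA per cell cannot be told apart.

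In DGCR8 KO cortex 37 miRNAs fell and 11 rose relative to DGCR8 HET. The falls included the abundant cortical miRNAs miR-92b-3p, miR-9-5p and miR-92a-3p, a whole cluster with miR-23a, both strands of miR-708, and let-7 and miR-30 guide strands. The rises were spread over the imprinted miRNA clusters of chromosome 12, the neuronal miR-137-3p and miR-129-1-3p, miR-344-3p and a few low miRNAs. In all, 48 of 557 miRNAs, or 8.62%, passed edgeR's quasi-likelihood test at a Benjamini-Hochberg adjusted p below 0.05, the falls making up 6.64% of those tested and the rises 1.97%. The median log2 fold change of all tested miRNAs was −0.07, and 19 of the falls and 6 of the rises exceeded 2-fold.

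In all 48 called miRNAs the KO libraries lay wholly outside the range of the HET libraries, and also outside that of the DGCR8 wild types. Of all 557 tested miRNAs 61.8% had no overlap between KO and HET, and 54.0% none between KO and both control genotypes, so a lack of overlap alone says little with 2 libraries a group. The falls lay at a median level of 429 CPM over the 4 libraries and the rises at 105 CPM, against 40.0 CPM for all tested miRNAs. The p-values rest on 2 mice a group, with a spread pooled over all 5 groups of the series, and the smallest p of an exact two-sided permutation test with 2 libraries on each side is 0.333.

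The number of calls depended on single libraries. Leaving out HET replicate 2 gave 6 calls, HET replicate 1 gave 51, KO replicate 1 gave 3 and KO replicate 2 gave 4. miR-23a-3p and miR-92b-3p fell in each of these 4 omissions and in each of 10 other settings. Without HET replicate 2 the calls were those of miR-216b-5p (−2.49), miR-708-3p (−2.07), miR-708-5p (−1.67), miR-23a-3p (−1.66), miR-92b-3p (−1.45) and miR-24-2-5p (−1.39), all falls. The split into falls and rises depended on the scaling: 22.9% of the calls were rises with TMM, while scaling to library totals moved the median by 0.41 and gave 67 rises and 9 falls. Those 9 falls were among the 37, and all 11 rises kept their call there. Each called miRNA kept its direction on library totals.

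**Figure D1:**
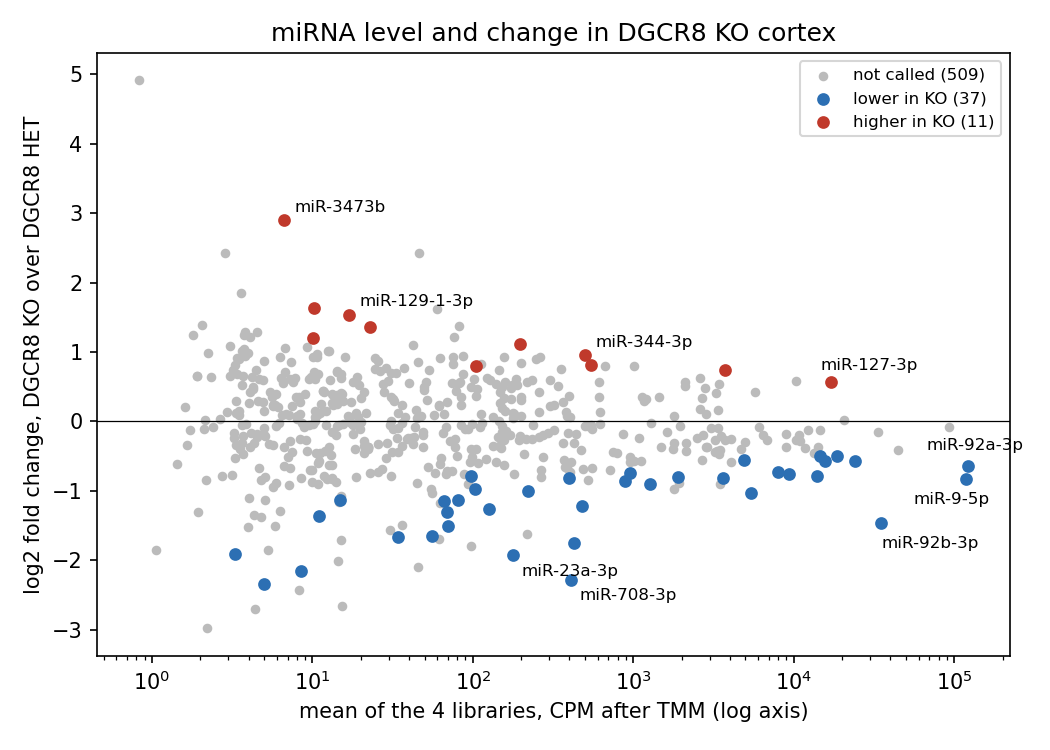
Each point is 1 of 557 tested miRNAs, with its mean level over the 2 HET and 2 KO libraries (CPM after TMM, log axis) against its log2 fold change, KO over HET. The 37 falls (blue) reach up to the most abundant miRNAs, while 10 of the 11 rises (red) lie below miR-127-3p in level.

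miR-92b-3p, the progenitor miRNA, fell most clearly among the abundant miRNAs. It stood at 51378 and 51299 CPM in HET and at 19750 and 17596 CPM in KO. The wild types, at 48468 and 52868 CPM, lay around the HET values and far from KO. The log2 fold change was −1.46 ± 0.12 (SE, n = 2 per group), a fold of 2.75, at an edgeR adjusted p of 2.55e-04. Across the omissions of 1 library it lay between −1.46 and −1.27.

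miR-92a-3p, which shares the seed AUUGCAC and comes from the miR-17-92 cluster on chromosome 14 and a second cluster on the X chromosome, fell less. Its levels were 153320 and 145540 CPM in HET and 89088 and 101490 CPM in KO, without overlap (−0.65 ± 0.10, edgeR adjusted p = 0.0119). Over the 21 bases they share, the miRNAs differ at C10U and C21G, counted from 1 at the 5′ end with the base of miR-92b-3p first. For every read of miR-92a-3p there were 0.335 and 0.353 reads of miR-92b-3p in HET and 0.222 and 0.173 in KO, so the ratio was lower in both KO libraries. miR-92a-3p lost its call on library totals and in reads without added bases. Such reads were only 1.84% and 1.95% of its reads in HET and 1.77% and 1.97% in KO. The other members of the seed family, miR-25-3p (−0.28) and miR-363-3p (−0.10), were not called. The opposite strand miR-92b-5p, at 18.1 to 26.1 CPM in the 4 libraries, was not called either (−0.39 ± 0.32).

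The clusters of miR-17-92 and its paralogs, which promote progenitor division, had 2 falls and 0 rises among 23 tested members. That is near the share of falls among all tested miRNAs, 6.64%. Beside miR-92a-3p the other fall was miR-19a-3p, which went from 120 and 126 CPM to 71.6 and 69.9 CPM (−0.79 ± 0.17, edgeR adjusted p = 0.0199). The median of the list was −0.35 against −0.07 for all tested miRNAs, but 0.04 on library totals.

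The miR-23a cluster fell as a block. It lies at chr8:84208518-84208921 on the plus strand of GRCm38 and holds the hairpins of miR-23a, miR-27a and miR-24-2, with gaps of 79 and 56 bases, so that they can be cut from 1 transcript. All 4 tested miRNAs that come from these hairpins alone were called lower, with a median of −1.79, while 6.64% of all tested miRNAs fell. The cluster is known from heart, blood and glia, and its paralog cluster on chromosome 13 makes miR-23b, miR-27b and miR-24-1.

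miR-23a-3p went from 237 and 326 CPM in HET to 77.0 and 71.5 CPM in KO (−1.92 ± 0.19, a fold of 3.79, edgeR adjusted p = 9.56e-04). miR-27a-3p went from 86.3 and 119 CPM to 30.4 and 42.5 CPM (−1.50 ± 0.24, edgeR adjusted p = 0.0119). Its opposite strand miR-27a-5p was low throughout, at 7.84 and 8.72 CPM against 1.16 and 2.15 CPM (−2.35 ± 0.43). Both wild types lay close to HET for these miRNAs, at 264 and 292 CPM for miR-23a-3p. miR-24-2-5p, the strand that tells the chromosome 8 copy of miR-24 apart, went from 71.0 and 97.7 CPM to 25.8 and 28.0 CPM (−1.65 ± 0.24). Its guide strand miR-24-3p, which both chromosomes make in identical form, went from 290 and 301 CPM to 146 and 147 CPM (−1.01 ± 0.20). The change of the mixed product was thus smaller than that of the strand from chromosome 8. Without HET replicate 2, miR-27a-3p and miR-24-3p lost their calls and miR-23a-3p and miR-24-2-5p did not.

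The paralogs from chromosome 13 were not called. miR-23b-3p stood at 397 and 437 CPM in HET and 391 and 352 CPM in KO (−0.17 ± 0.15), and at 0.24 on library totals. miR-27b-3p stood at 4047 and 4787 CPM and at 3616 and 3788 CPM (−0.25 ± 0.13), and at 0.14 on library totals. The reads of miR-23a-3p per read of miR-23b-3p were 0.598 and 0.746 in HET, 0.628 and 0.696 in wild type, and 0.197 and 0.203 in KO. Those of miR-27a-3p per read of miR-27b-3p were 0.0213 and 0.0249 in HET and 0.00841 and 0.0112 in KO. These ratios do not depend on how libraries are scaled, and in both the KO libraries lay below all others of the line. miR-27a-3p and miR-27b-3p differ only at C19U, so a misread base can turn one into the other, and the low miR-27a-3p counts may contain reads of the far more abundant miR-27b-3p.

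Both strands of miR-708 fell. Its hairpin lies in an intron of Tenm4, a teneurin gene of the nervous system, on chromosome 7. miR-708-5p went from 632 and 691 CPM to 191 and 201 CPM (−1.75 ± 0.20, a fold of 3.37, edgeR adjusted p = 0.00160). miR-708-3p went from 594 and 769 CPM to 141 and 140 CPM (−2.28 ± 0.33, edgeR adjusted p = 0.00769). The wild types were higher than the heterozygotes for both strands, with 786 and 917 CPM of miR-708-5p. Of the reads of the hairpin, miR-708-5p took 51.6% and 47.3% in HET and 57.6% and 58.9% in KO, so the balance of the strands lay without overlap as well.

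miR-9-5p, the leading miRNA of neural progenitors and made from hairpins on chromosomes 3, 7 and 13, stood at 147880 and 153460 CPM in HET and at 80909 and 88958 CPM in KO. The KO libraries were well below HET and the wild types (−0.83 ± 0.17, edgeR adjusted p = 0.0199). Its opposite strand miR-9-3p, at 4214 and 4825 CPM against 2296 and 2561 CPM, missed the threshold (−0.90 ± 0.24, adjusted p = 0.0521). miR-3093-5p, whose hairpin lies 340 bases from that of miR-9-1 in the same intron of Gm3764, went from 48.8 and 54.5 CPM to 16.9 and 15.6 CPM (−1.66 ± 0.34). Without HET replicate 2 neither miR-9-5p nor miR-3093-5p was called.

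Another pair of falls came from introns of Rmst, a long non-coding RNA gene of neural progenitors on chromosome 10. miR-1251-5p went from 184 and 172 CPM to 92.0 and 54.9 CPM (−1.27 ± 0.24, edgeR adjusted p = 0.0199). miR-135a-2-3p, 64954 bases away, went from 92.4 and 103 CPM to 48.1 and 30.7 CPM (−1.30 ± 0.27). For both miRNAs KO replicate 2 was the lower KO library, and KO and HET did not overlap.

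**Figure D2:**
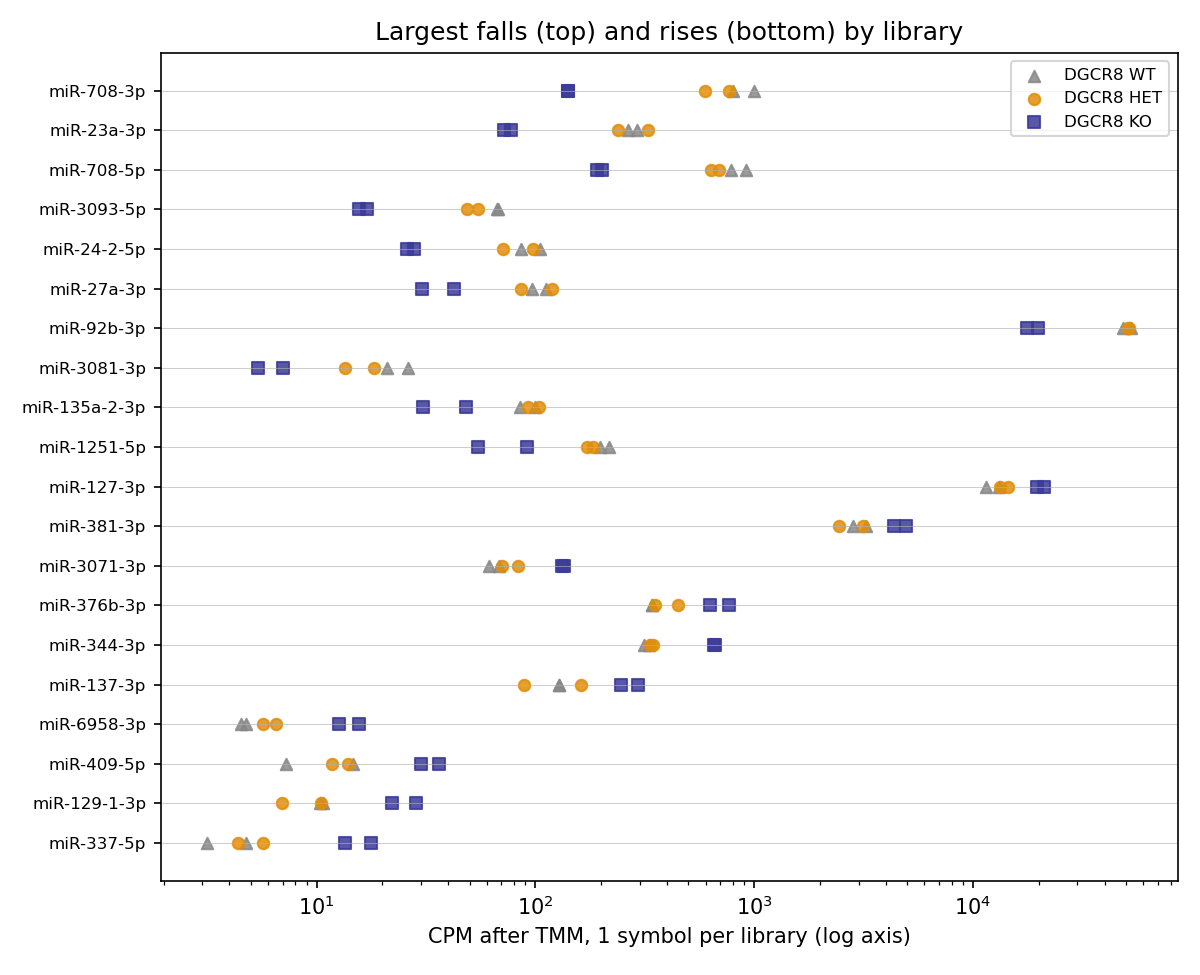
Level in each DGCR8 library (CPM after TMM, log axis) of the 10 largest falls and the 10 largest rises that passed the test and averaged at least 10 CPM. Each symbol is 1 library; in every row the KO squares lie apart from HET circles and wild-type triangles, as the choice of called miRNAs without overlap requires for HET.

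The let-7 guide strands rise as progenitors mature and restrain growth genes. Against 6.64% falls among all tested miRNAs, 4 of the 9 let-7 guide strands tested fell and 0 rose. let-7f-5p, the most abundant, went from 15982 and 19620 CPM to 9714 and 10864 CPM (−0.79 ± 0.18, edgeR adjusted p = 0.0279). let-7i-5p went from 10434 and 12948 CPM to 6251 and 7569 CPM (−0.76 ± 0.17). HET replicate 2 was the higher HET library for both, and KO stayed below HET replicate 1. let-7d-5p (−0.81 ± 0.17) and miR-98-5p (−0.85 ± 0.21), which has the let-7 seed and lies in an intron of Huwe1, were the other falls. let-7c-5p, at 14339 and 17775 CPM against 12331 and 12518 CPM, was not called (−0.37 ± 0.18). All 9 fold changes were below 0, with a median of −0.76 against −0.07 for all tested miRNAs. On library totals the median was −0.36 and none of the 9 was called, and none was called without HET replicate 2. Counts of near-identical let-7 members can be mixed by a misread base.

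Among the let-7 passenger strands 1 of 8 was called, let-7d-3p, which went from 1589 and 1719 CPM to 840 and 924 CPM (−0.91 ± 0.19, edgeR adjusted p = 0.0199). The median of the 8 was −0.91 against −0.07 for all tested miRNAs, of which 6.64% fell.

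Of 11 tested strands of miR-30, a family of several tissues, 4 fell and 0 rose, and the 4 were guide strands. The share of falls among all tested miRNAs was 6.64%. miR-30a-5p went from 26959 and 30235 CPM to 17761 and 20887 CPM (−0.57 ± 0.12, edgeR adjusted p = 0.0220). miR-30c-5p (−0.50 ± 0.11), miR-30d-5p (−0.50 ± 0.11) and miR-30e-5p (−0.56 ± 0.13) moved by about the same amount. These changes were small beside most called ones. All 4 calls were lost on library totals, with relative log expression scaling, with only the 4 libraries compared and in reads without added bases. DESeq2 called 5 of the 11 lower. In reads without added bases miR-30a-5p lay at 0.06. Such reads were only 1.43% and 1.32% of miR-30a-5p reads in HET and 1.87% and 1.99% in KO.

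Several further falls came from single hairpins inside host genes. miR-301a-3p, in an intron of Ska2, went from 6686 and 7824 CPM to 3426 and 3706 CPM (−1.02 ± 0.22, edgeR adjusted p = 0.0220). miR-330-5p and miR-330-3p, which lie within Eml2 and overlap an annotated exon, fell by 0.81 and 1.13 on the log2 scale. miR-224-5p, in an intron of Gabre, went from 108 and 116 CPM to 59.3 and 42.0 CPM (−1.14 ± 0.20). Smaller changes were called in miR-744-5p of an intron of Map2k4 (−0.75 ± 0.16) and in miR-298-5p of the imprinted Gnas region (−0.73 ± 0.16). miR-148a-3p (−0.82 ± 0.15), miR-29c-3p (−1.14 ± 0.23) and miR-3085-3p (−0.97 ± 0.20) fell as well, and so did the low miR-3081-3p of an intron of Boc (−1.37 ± 0.33), miR-216b-5p (−2.15 ± 0.45) and miR-1968-5p (−1.91 ± 0.44).

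Other abundant miRNAs were not called. miR-181a-5p stood at 90908 and 98465 CPM in HET and at 86778 and 92818 CPM in KO, which overlap (−0.08 ± 0.13). Of 9 tested miR-181 strands only miR-181d-5p fell (−0.55 ± 0.13), while 6.64% of all tested miRNAs fell. The median of the list, −0.12, turned to 0.28 on library totals. miR-16-5p stood at 34918 and 35923 CPM against 26519 and 37332 CPM, with the KO libraries on either side of HET (−0.15 ± 0.19). miR-26a-5p, at 46789 and 54861 CPM against 35406 and 41115 CPM, missed the threshold (−0.41 ± 0.12, edgeR adjusted p = 0.0690). miR-125b-5p differed least, at 20014 and 20494 CPM against 19664 and 21530 CPM (0.02 ± 0.15). Of the 11 tested strands of miR-99, miR-100 and miR-125 none was called by edgeR or DESeq2 (4 at an unadjusted p below 0.05), with a median of −0.26 that turned to 0.14 on library totals.

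In the imprinted domain of chromosome 12 a few miRNAs rose, and most of the others lay above 0 without a call. This domain holds miRNAs antisense to Rtl1 and the distal miR-379 to miR-410 cluster, which are expressed from the maternal chromosome and active in neurons and placenta. Among all tested miRNAs 1.97% rose and 6.64% fell. Of 69 tested miRNAs of both groups 6 rose and 0 fell, 65 had a fold change above 0, and the median was 0.56. Together they took 4.51% and 3.74% of miRNA reads in HET and 8.63% and 7.35% in KO. The share was higher in both KO libraries than in any HET or wild-type library, the wild types being at 3.99% and 3.35%. Read shares follow library totals, on which the median log2 fold change of all tested miRNAs was 0.33.

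miR-127-3p, an imprinted miRNA antisense to Rtl1, was the most abundant of the rises. It went from 13254 and 14388 CPM to 19679 and 21118 CPM (0.56 ± 0.15, edgeR adjusted p = 0.0490), so it passed the threshold narrowly. Near it, miR-434-3p at 9242 and 7220 CPM against 12895 and 11693 CPM was not called (0.58 ± 0.19, adjusted p = 0.0867). miR-3071-3p, which is listed with them but matches the minus strand within an exon of Rtl1, opposite to miR-127-3p, went from 83.7 and 70.2 CPM to 136 and 132 CPM (0.80 ± 0.20). The low miR-337-5p went from 5.66 and 4.36 CPM to 17.7 and 13.4 CPM (1.64 ± 0.42), and its share of the reads of its hairpin was 50.0% and 47.6% in HET and 62.2% and 62.5% in KO.

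In the distal cluster, at chr12:109709060-109747960 for the members within 10000 bases of each other, miR-381-3p went from 3128 and 2436 CPM to 4962 and 4374 CPM (0.75 ± 0.18, edgeR adjusted p = 0.0279). miR-376b-3p (0.81 ± 0.18) and miR-409-5p (1.37 ± 0.32) were the other rises among 54 tested members. HET replicate 1 was higher than HET replicate 2 for miR-381-3p and miR-376b-3p and still below both KO libraries. miR-410-3p, the most abundant member, was not called, at 5570 and 4162 CPM against 7402 and 5702 CPM (0.43 ± 0.19). Scaled to library totals, 67 of all 557 tested miRNAs rose, and the median over the 557 was 0.33. On library totals 22 of the 54 rose, while without HET replicate 2 none was called and the median was 0.46.

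Neuron-enriched miRNAs went both ways. Of 25 tested, 2 rose and 1 fell, and the median was 0.33. Among all tested miRNAs 1.97% rose and 6.64% fell. miR-137-3p, which promotes neuronal maturation, went from 162 and 88.5 CPM to 294 and 247 CPM (1.11 ± 0.27, edgeR adjusted p = 0.0301). miR-129-1-3p, a strand of low abundance, went from 10.5 and 6.98 CPM to 28.5 and 22.1 CPM (1.54 ± 0.31). miR-218-5p, from introns of the axon guidance genes Slit2 and Slit3, went from 630 and 717 CPM to 353 and 227 CPM (−1.21 ± 0.25). The most abundant members were not called, miR-128-3p with 15894 and 14796 CPM against 10869 and 11538 CPM (−0.45 ± 0.33) and miR-138-5p with 3272 and 2320 CPM against 4240 and 3859 CPM (0.53 ± 0.19). miR-124-3p, the main miRNA of neurons, stood at 1956 and 1499 CPM and at 2564 and 2376 CPM (0.52 ± 0.24, edgeR adjusted p = 0.179). Scaled to library totals, 67 of all 557 tested miRNAs rose, and the median over the 557 was 0.33. On library totals 9 of the 25 rose and miR-218-5p lost its call, and without HET replicate 2 none was called.

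The largest called rise was that of miR-3473b, from 2.18 and 0.872 CPM to 10.8 and 12.9 CPM (2.90 ± 0.52, edgeR adjusted p = 0.0176). It lies below the level of 10 CPM used for naming and is named because its value stands out. miR-455-3p had a change of 2.43 ± 0.78, from 16.1 and 12.6 CPM to 82.8 and 72.6 CPM, without being called (adjusted p = 0.0793). miR-5121, with 0 reads in both HET libraries and 3 and 4 reads in KO, was not called either. Both were chosen after their values were seen.

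**Figure D3:**
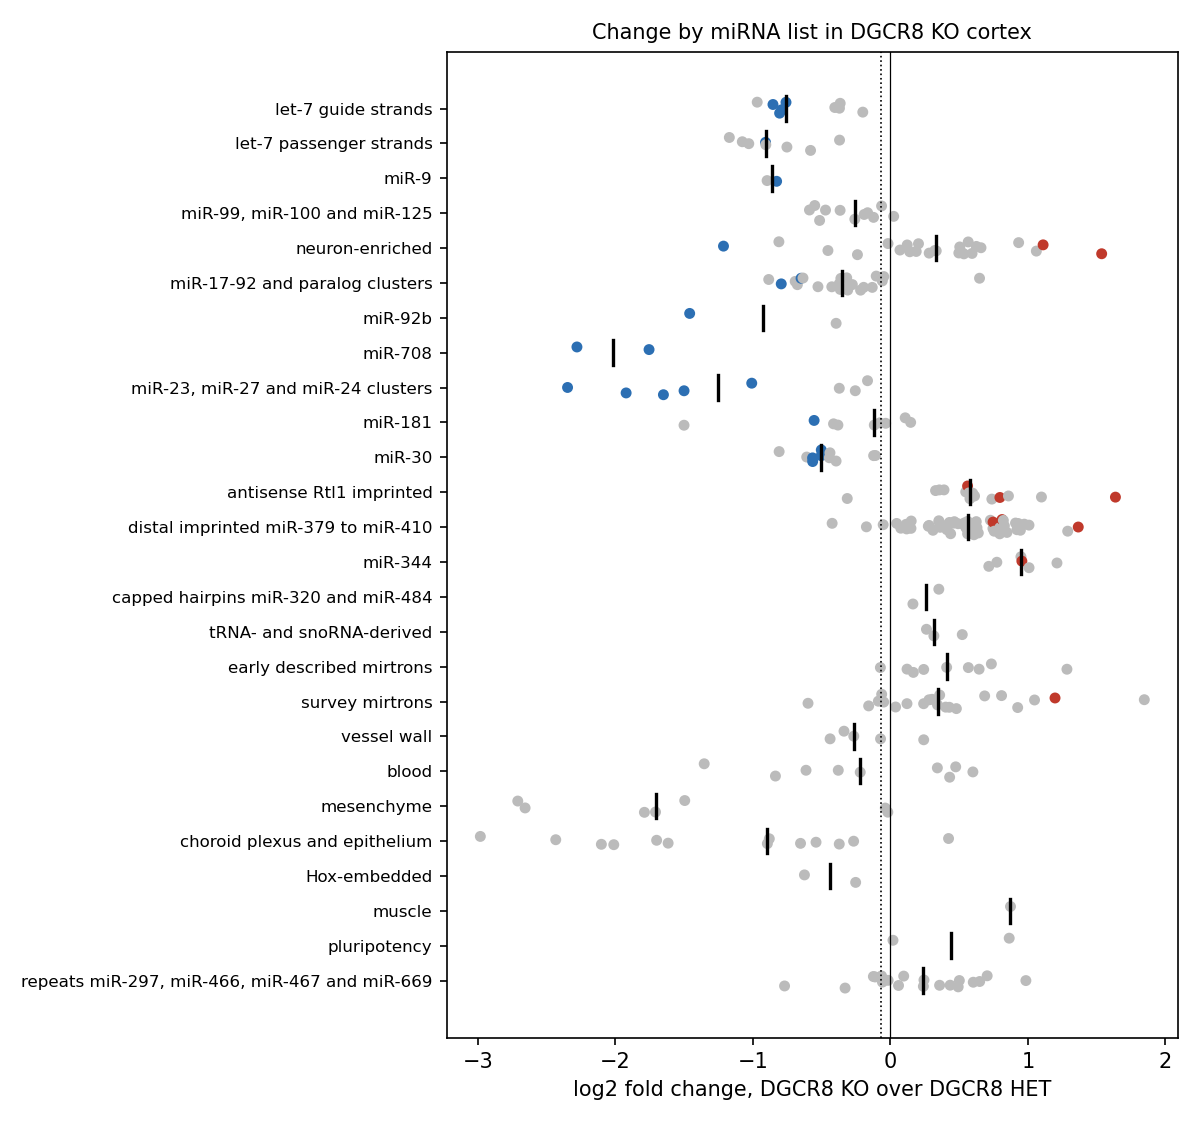
Log2 fold change, KO over HET, of each tested member of 26 miRNA lists (red, rose; blue, fell; grey, not called), with the list median as a bar and the median of all tested miRNAs (−0.07) as a dotted line. The miR-708, miR-23/27/24 and let-7 lists lie left of 0 and the imprinted and miR-344 lists right of it, while the widest spread to the left without calls is in the mesenchyme and choroid plexus lists.

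miRNAs described as made without DGCR8 were mostly above 0 relative to the rest. Among all tested miRNAs 1.97% rose and 6.64% fell. Of 41 tested members of 5 such lists 2 rose and 0 fell, 35 had a fold change above 0, and the median was 0.40 against −0.07 for all tested miRNAs. They took 0.852% and 0.775% of reads in HET and 1.35% and 1.38% in KO, with 0.783% and 0.770% in wild type. Both KO libraries thus lay above the 4 controls. Read shares follow library totals, on which the median log2 fold change of all tested miRNAs was 0.33.

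miR-344-3p, of a family whose members are described as independent of DGCR8, went from 344 and 335 CPM to 660 and 658 CPM (0.96 ± 0.16, a fold of 1.94, edgeR adjusted p = 0.0156). Its hairpins lie in introns of the non-coding genes A230057D06Rik and A330076H08Rik on chromosome 7. All 6 tested members of the family had fold changes between 0.72 and 1.21 and no overlap between KO and HET. Of all tested miRNAs 61.8% had no such overlap, and 67 of the 557 rose on library totals. miR-344f-3p, next in level, stood at 67.5 and 50.2 CPM and at 117 and 110 CPM without being called (0.95 ± 0.27, adjusted p = 0.0624). The mirtron-numbered miR-6958-3p lies within Dennd6b and overlaps an annotated exon. It was the second rise, from 6.54 and 5.67 CPM to 12.7 and 15.6 CPM (1.20 ± 0.28, edgeR adjusted p = 0.0279). Without HET replicate 2 neither was called, while on library totals 3 of the 6 miR-344 members rose.

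The abundant members of the other lists were not called by edgeR with TMM scaling. The capped miR-484 stood at 3195 and 3191 CPM in HET and 3429 and 3728 CPM in KO (0.16 ± 0.12), and miR-320-3p at 535 and 532 CPM and 650 and 712 CPM (0.35 ± 0.17). The tRNA-derived miR-1983 stood at 1101 and 1051 CPM and at 1243 and 1437 CPM (0.32 ± 0.15). The mirtron miR-6944-3p, in an intron of Dbn1, stood at 2498 and 2178 CPM and at 3105 and 3417 CPM (0.48 ± 0.15, adjusted p = 0.0710). In each of these 4 the KO libraries were the higher ones. Of all tested miRNAs 61.8% had no overlap between KO and HET. All 4 were called higher on library totals, with changes from 0.56 for miR-484 to 0.87 for miR-6944-3p. In that setting 67 of all 557 tested miRNAs rose, and the median over the 557 was 0.33. DESeq2 called miR-320-3p, miR-1983 and miR-6944-3p higher, among 39 of all 557. Among the early described mirtrons, miR-877-5p of an intron of Abcf1 (0.12 ± 0.20) and miR-702-3p of an intron of Plod3 (−0.07 ± 0.21) overlapped between the groups, and the sign of miR-702-3p turned on library totals. The medians of the early described and the mirtron-numbered lists were 0.41 and 0.34.

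miRNAs of other cells were followed to see what else the dissected tissue held. Of 5 vessel-wall, 9 blood, 7 mesenchymal and 13 choroid plexus and epithelial miRNAs tested, edgeR's quasi-likelihood test called 0 over all 10 libraries, with 0, 2, 2 and 2 at an unadjusted p below 0.05. DESeq2 called 1 blood miRNA higher and 2 mesenchymal ones lower. On library totals 2 blood miRNAs were called higher, against 67 of all 557 tested miRNAs. With no filter on low counts 5 mesenchymal and 7 choroid plexus and epithelial miRNAs were called lower, and without HET replicate 1, which leaves HET replicate 2 as the lone control, 5 and 5 were, with 1 of the vessel wall. The vessel-wall list took 0.359% and 0.687% of reads in HET and 0.583% and 0.574% in KO. The blood list took 0.243% and 0.282% in HET and 0.496% and 0.393% in KO, so blood miRNAs took the larger share in KO. On library totals, which read shares follow, the median log2 fold change of all tested miRNAs was 0.33. The mesenchymal list took 0.0776% and 0.112% against 0.103% and 0.0969%. Choroid plexus and epithelial miRNAs took 0.117% and 0.575% against 0.343% and 0.148%. Their part in the changes of other miRNAs was not tested.

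HET replicate 2 carried most of the spread. miR-204-5p, the main miRNA of choroid plexus, stood at 641 and 4373 CPM in HET and 1921 and 776 CPM in KO (−0.89 ± 0.85). miR-200b-3p of epithelia stood at 13.51 and 174 CPM against 20.02 and 38.2 CPM, and miR-199b-3p of mesenchyme at 26.6 and 277 CPM against 38.5 and 49.5 CPM. The vessel-wall miR-143-3p was 2683 and 5463 CPM against 3346 and 3430 CPM (−0.27 ± 0.28). With HET replicate 2 the list medians were −0.89 for choroid plexus and epithelium, −1.71 for mesenchyme, −0.27 for the vessel wall and −0.22 for blood. Without it they were 0.56, −0.01, 0.45 and 0.47, and on library totals the vessel-wall and blood medians were 0.14 and 0.18.

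**Figure D4:**
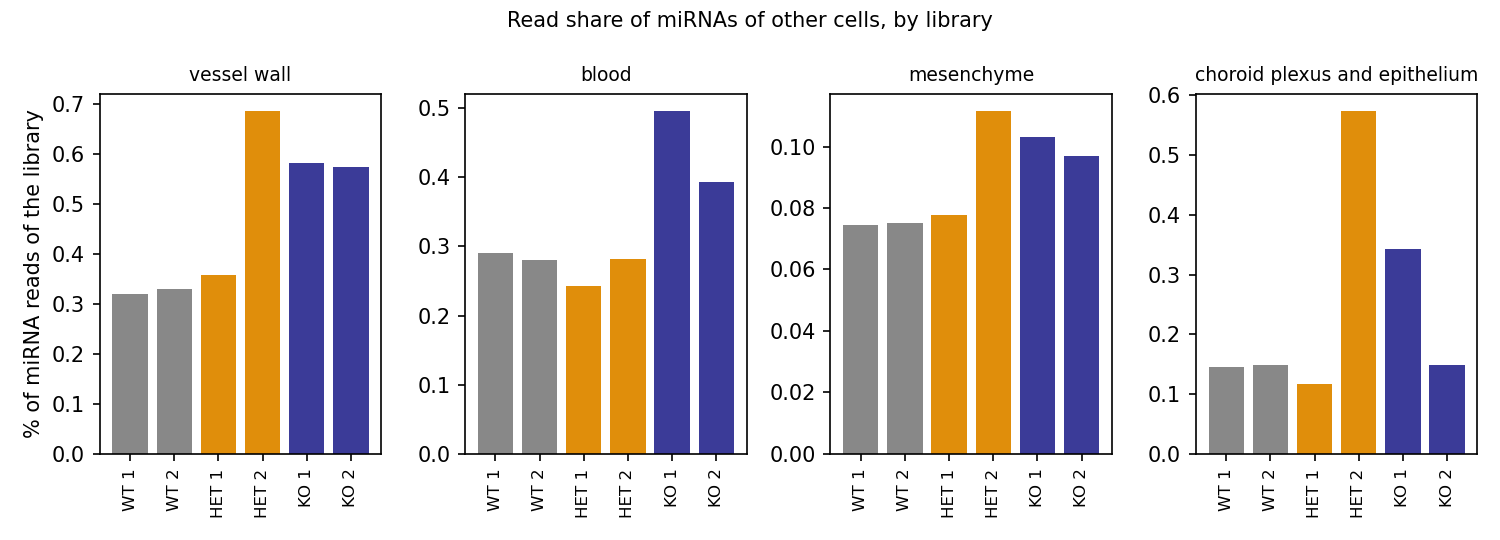
Share of miRNA reads (%) taken by miRNAs of vessel wall, blood, mesenchyme, and choroid plexus and epithelium in each DGCR8 library, 1 bar per library. HET replicate 2 has the highest bar for vessel wall (0.687%), mesenchyme (0.112%) and choroid plexus (0.575%), while for blood the KO bars are the highest.

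Markers of hindbrain and spinal cord, muscle and pluripotent cells were low. The Hox-embedded miRNAs miR-10a and miR-10b, which mark tissue behind the forebrain, took 0.00144% and 0.00344% of reads in HET and 0.00144% and 0.00313% in KO, and neither of 2 tested was called by edgeR or DESeq2. Of the muscle miRNAs only miR-133a-3p was tested, and it stood at 17.4 and 18.8 CPM against 37.0 and 29.1 CPM (0.87 ± 0.42, not called). It was called higher with the 6 libraries of the DGCR8 line alone. Of 2 pluripotency miRNAs none was called, and among 19 miRNAs of the repeat family (miR-466, miR-467, miR-669 and miR-297), whose counts are uncertain because the copies are nearly the same, none was called either (median 0.24; 1 at an unadjusted p below 0.05), with 1 higher on library totals.

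The opposite strands of a hairpin mostly moved together. Of 150 hairpins with both strands tested, 125 (83.3%) had fold changes of the same sign, and the correlation of the strands was r = 0.74 across hairpins, which share libraries and are not replicates. Both strands were called lower for 4 hairpins, let-7d, miR-27a, miR-330 and miR-708. No hairpin had both strands called higher or called in opposite directions.

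Between DGCR8 HET and DGCR8 WT edgeR's quasi-likelihood test called 0 of 557 miRNAs (0.0%), with 23 at an unadjusted p below 0.05, and DESeq2 called 0 as well. With no filter on low counts 18 miRNAs were higher in HET, and without HET replicate 1 there were 12. miRNAs of other cells were above 0 in HET over wild type, with list medians of 3.25 for mesenchyme, 0.97 for choroid plexus and epithelium, 0.73 for the vessel wall, 0.54 for blood and 1.53 for the 2 Hox-embedded miRNAs, against 0.02 for all tested miRNAs. HET replicate 2 had the higher HET read share in each of these lists. In HET replicate 1 the mesenchymal share was 0.0776%, against 0.0743% and 0.0751% in wild type. Its choroid plexus and epithelial share was 0.117% against 0.145% and 0.148%, and its blood share 0.243% against 0.291% and 0.280%. Its vessel-wall share was 0.359% against 0.320% and 0.329%, and its Hox-embedded share 0.00144% against 0.000575% and 0.00103%. KO against wild type gave 115 calls (20.6%), 49 higher (8.8%) and 66 lower (11.8%). That comparison shares the KO libraries with KO against HET, so its values are only set beside them. miR-92b-3p changed by −1.44 against wild type and −1.46 against HET, miR-23a-3p by −1.90 and −1.92, miR-9-5p by −0.84 and −0.83, and miR-344-3p by 1.03 and 0.96. miR-708-3p differed more between the controls, with −2.68 against wild type and −2.28 against HET.

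The Dicer line, from other mice, shows how the same miRNAs stood when the later step was removed. Dicer KO against Dicer WT gave 172 calls (30.9%), of which 89 were falls (16.0%) and 83 rises (14.9%). Of the 37 falls in DGCR8 KO, 23 (62.2%) also fell in Dicer KO, which is 25.8% of the Dicer falls, and 1 rose there. Of the 11 rises, 7 rose in Dicer KO and 1 fell. Across all 557 miRNAs the fold changes had r = 0.33, a description in which genes of 1 library are not replicates. miR-92b-3p (−1.71), miR-9-5p (−0.86), miR-708-5p (−2.23) and miR-218-5p (−1.23) fell in Dicer KO too, and miR-127-3p (0.89) and miR-381-3p (1.16) rose there.

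The difference of the effects, DGCR8 KO over HET minus Dicer KO over WT, was tested itself. It passed the threshold for 13 of 557 miRNAs (2.33%), with 5 higher in the DGCR8 line (0.898%) and 8 lower (1.44%). All 5 that were higher belong to the lists described as independent of DGCR8. They are miR-6958-3p (2.56 ± 0.48), miR-6944-3p (1.86 ± 0.21), miR-1983 (1.84 ± 0.22), miR-702-3p (1.70 ± 0.31) and miR-484 (1.06 ± 0.17). miR-6944-3p, for example, changed by 0.48 in the DGCR8 line and by −1.38 in the Dicer line. Over the 41 members of these lists the median difference was 1.23 and 37 were above 0, against a median of −0.04 for all tested miRNAs.

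Among the 8 that were lower in the DGCR8 line, 3 came from the miR-23a cluster. miR-23a-3p changed by −1.92 in the DGCR8 line and by −0.13 in the Dicer line (difference −1.80 ± 0.27, edgeR adjusted p = 0.0109). Differences were also called for miR-27a-3p (−1.64 ± 0.33) and miR-24-2-5p (−1.53 ± 0.33), which were not called in the Dicer line. The Dicer line had a ratio of miR-23a-3p to miR-23b-3p of 0.551 and 0.567 in its KO libraries against 0.807 and 0.820 in its WT libraries, so it was lower there too, by less. miR-135a-2-3p fell in the DGCR8 line and rose in the Dicer line (difference −2.51 ± 0.37), while its Rmst neighbour miR-1251-5p fell in both (−1.27 and −2.87). The endothelial miR-126a-5p (−1.83 ± 0.38) and miR-126a-3p (−1.67 ± 0.36), the blood miR-142-5p (−2.23 ± 0.48) and miR-22-3p (−0.96 ± 0.20) rose in Dicer KO and were not called in DGCR8 KO. Together, vessel-wall and blood miRNAs made up 3.36% and 3.95% of reads in Dicer KO against 1.27% and 1.02% in its wild type, and 1.08% and 0.966% in DGCR8 KO against 0.602% and 0.969% in DGCR8 HET. Their part in the differences was not tested. Leaving out 1 library gave from 2 to 64 calls, with 2 without Dicer WT replicate 1, 43 without DGCR8 HET replicate 1 and 64 without Dicer KO replicate 1.

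**Figure D5:**
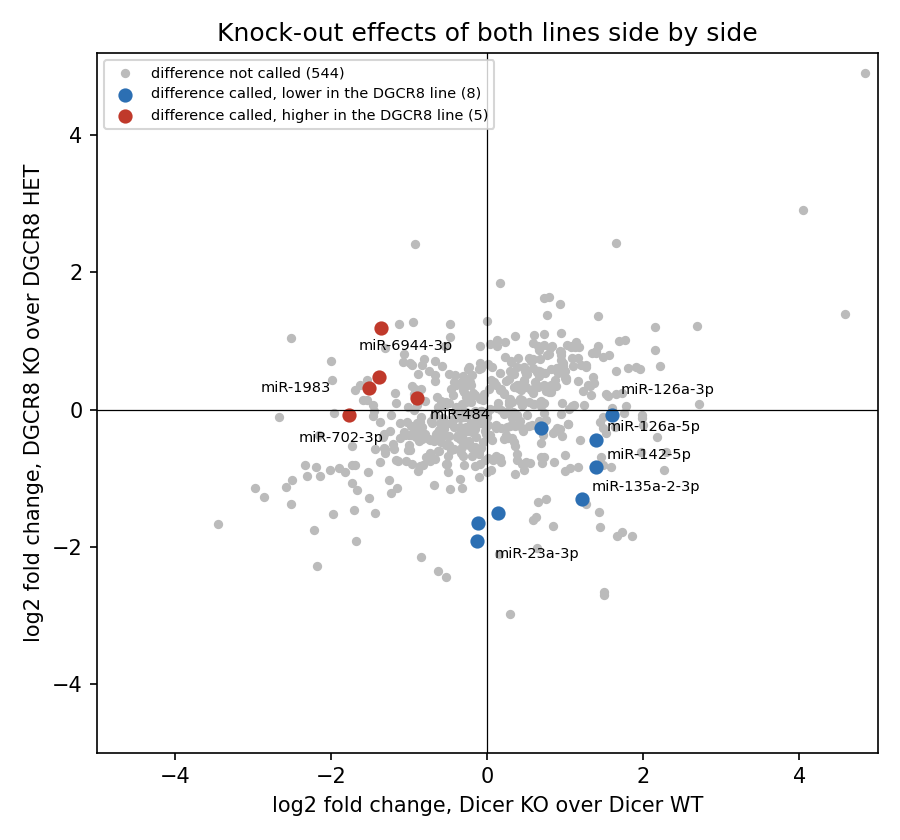
Log2 fold change of each tested miRNA in the DGCR8 line (KO over HET, vertical) against the Dicer line (KO over WT, horizontal). Coloured points are the 13 miRNAs whose difference was called: the 5 in red, higher in the DGCR8 line, lie left of 0 on the Dicer axis, and the 8 in blue include miR-23a-3p near 0 on that axis.

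Bases added at the 3′ end of miRNAs, as the entry names of the table give them, differed little. Whether such bases match the hairpin sequence or were added to the finished miRNA was not examined. Reads with no addition made up 61.5% and 62.3% in HET and 63.5% and 63.1% in KO, and reads with 2 or 3 added bases 15.5% and 15.6% against 14.2% and 14.3%. When the miRNA composition was held at the HET mean, the share with no addition was 62.2% and 62.2% in HET and 62.2% and 62.1% in KO. On that basis 1 added T made up 18.3% and 17.9% in HET and 18.7% and 18.9% in KO, and 1 added A 2.63% and 2.73% in HET and 2.42% and 2.41% in KO. Among the 100 most abundant miRNAs the share with 1 added T was higher in KO without overlap in 61 (61.0%) and lower in 14 (14.0%). For HET against wild type the same counts were 11 (11.0%) and 28 (28.0%). miR-151-5p, for example, had no addition in 40.4% and 42.5% of its reads in HET and 51.0% and 50.3% in KO, with 1 added A in 49.5% and 47.5% against 40.0% and 41.1%. With 2 libraries a group these shares have no test.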

How the data were processed

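Small RNA libraries of 1000 ng total RNA from cortex of E13.5 embryos were read from a table of raw counts deposited by the authors, 1 row per miRNA and 3′ suffix. Alignment used Bowtie and GRCm38, per the submitters' processing notes, and the table's name points to IsomiRage. Its version, its mismatch setting and how it placed reads with several matches were not given in the labels. Column names of the DGCR8 line carry another pool number than the labels do, so columns were matched on line and index number, and every DGCR8 value rests on that match.

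Counts were summed per miRNA name. Of 1432 names 557 passed edgeR's filterByExpr (minimum count 10, minimum total 15), and names below it took from 0.0297% to 0.0476% of reads. Libraries held from 800623 to 4486774 miRNA reads, and no spike-in enters the TMM scaling. edgeR 4.0.16 (R 4.3.3) fitted all 10 libraries with 1 mean per group by the quasi-likelihood test (biological coefficient of variation 0.230, 5 residual degrees of freedom). P-values are two-sided and Benjamini-Hochberg adjusted over 557 miRNAs. SEs are those of the fit. The fit was tested on a single simulated set, where 12.5% of 1.5-fold, 39.4% of 2-fold and 90.6% of 4-fold changes were called. A miRNA that was not called may thus still have changed.

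Named miRNAs are the 10 largest called rises and falls that average 10 CPM or more over the 4 libraries without overlap, the 10 most abundant, the most abundant 2 tested and 2 called of each list, and the 5 largest differences between lines each way. Other called miRNAs are named to account for all 48. Members and lists were chosen with earlier results of these data known. In the main fit, replicate numbers were not used to pair the DGCR8 mice. Sequences and hairpin positions are RefSeq's (GRCm38.p6; 478 of 557 names and 46 of 48 called ones matched), and host genes come from GENCODE on GRCm38. Alternatives were other scalings, DESeq2 1.42.0, no filter, a replicate block, reads without additions, thinned libraries, other sets of libraries or controls, and leaving out each library.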

Additional observations from a re-analysis of the deposited data

Results flagged for a closer look

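These miRNAs had an effect in the DGCR8 line (KO over HET) that differed from that in the Dicer line (KO over WT) by a test of the difference itself (edgeR's quasi-likelihood test, Benjamini-Hochberg adjusted over 557 miRNAs, 13 calls). Lower in the DGCR8 line were miR-135a-2-3p by −2.51 (adjusted p = 0.0109), miR-142-5p by −2.23 (0.0493), miR-126a-5p by −1.83 (0.0489), miR-23a-3p by −1.80 (0.0109) and miR-126a-3p by −1.67 (0.0493). Higher in the DGCR8 line were miR-6944-3p by 1.86 (0.00393), miR-1983 by 1.84 (0.00393), miR-702-3p by 1.70 (0.0295) and miR-484 by 1.06 (0.0142). miR-135a-2-3p was called in both lines in opposite directions, −1.30 in DGCR8 KO and 1.21 in Dicer KO. The endothelial miR-126a-3p stood at 379 and 696 CPM in DGCR8 HET, and its change in the DGCR8 line, −0.07, was 0.45 without HET replicate 2.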

How the results depend on the processing

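The 48 calls (11 rises, 37 falls) became 54 (23 and 31) with relative log expression scaling, 76 (67 and 9) on library totals, 85 (34 and 51) with no filter on low counts, 81 (39 and 42) in DESeq2, 32 (11 and 21) in reads without additions, 38 (10 and 28) in thinned libraries, 97 (37 and 60) with the 6 libraries of the DGCR8 line, 19 (4 and 15) with only the 4 libraries compared, and 124 (51 and 73) against the mean of HET and WT. Leaving out 1 of the 4 libraries gave from 3 to 51 calls. The replicate block gave 48 (10 and 38). Deviations of same-numbered KO and HET libraries had a correlation of −0.05002, and those of KO and DGCR8 wild type 0.17. With 2 mice a group these correlations cannot tell whether same-numbered mice were paired. The 13 differences between lines became 13 with relative log expression scaling, 31 on library totals, 70 with no filter, 58 in DESeq2, 12 with the replicate block, 5 in reads without additions, 11 in thinned libraries and from 2 to 64 without 1 library. The cause of these shifts was not tested. Each of the 48 called miRNAs kept its direction in all settings in which it was tested, except miR-30a-5p at 0.06 (0.0620) in reads without additions. Such reads were only 1.43% and 1.32% of miR-30a-5p reads in HET and 1.87% and 1.99% in KO.

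The other reversals concern miRNAs that were not called for KO against HET. miR-126a-3p lay at 0.0484 with relative log expression scaling, 0.33 on library totals, 0.0269 with no filter, 0.0483 in DESeq2, 0.0374 in reads without additions, 0.0701 in thinned libraries, 0.0335 with 6 and 0.0398 with 4 libraries, 0.14 against the mean of HET and WT, 0.45 without HET replicate 2 and 0.0822 without KO replicate 1 (omissions from −0.45 to 0.45). miR-126a-5p lay at 0.14 without HET replicate 2 (omissions from −0.84). miR-16-5p lay at 0.24 on library totals and 0.17 without KO replicate 1 (omissions from −0.31). miR-181a-5p lay at 0.0437 with relative log expression scaling and in DESeq2, 0.32 on library totals, 0.00844 with no filter, 0.0566 in reads without additions, 0.0216 with 6 and 0.0276 with 4 libraries, and 0.0650 without KO replicate 1 (omissions from −0.13). miR-23b-3p lay at 0.24 on library totals, 0.13 in reads without additions and 0.0119 without KO replicate 2 (omissions from −0.23), and miR-27b-3p at 0.14 on library totals. miR-702-3p lay at 0.0458 with relative log expression scaling, 0.33 on library totals, 0.00980 with no filter, 0.0471 in DESeq2, 0.0227 with 6 and 0.0290 with 4 libraries, 0.0364 against the mean of HET and WT, 0.00299 without HET replicate 1 and 0.14 without KO replicate 2 (omissions from −0.13). Depth limits what can be called among miRNAs of few reads.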

Other observations

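miR-673-5p, an imprinted miRNA of chromosome 12, had 155 and 0 reads in DGCR8 WT, 3 and 131 in HET and 266 and 144 in KO, while its opposite strand miR-673-3p had 104 and 33, 60 and 90, and 162 and 103 reads in the same libraries. The low and high libraries of miR-673-5p thus cross the genotypes, and those of miR-673-3p stay within a few-fold. miR-1298-5p, a choroid plexus miRNA, had 108 and 2196 reads in HET and 1361 and 148 in KO, so 1 library of each genotype was high. miR-5121 had 0 reads in the DGCR8 WT and HET libraries, 3 and 4 in KO, and 10 and 7 in Dicer KO against 1 and 1 in its wild type.

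The Mir449 cluster on chromosome 13 and the Mir200b cluster on chromosome 4, both of ciliated or other epithelia, had medians of −2.43 and −2.01 over 3 tested members each without a call. In both clusters HET replicate 2 was high: miR-449a-5p stood at 133 and 526 CPM in HET and 144 and 69.9 CPM in KO, and miR-429-3p at 11.8 and 136 CPM against 16.2 and 18.3 CPM.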
